A study of Mus musculus with 9 samples.

Results

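The 10 genes described here encode proteins that restrain the cell cycle or respond to cell stress: 5 cyclin-dependent kinase (CDK) inhibitors (Cdkn1a, Cdkn1b, Cdkn1c, Cdkn2c and Cdkn2d), 3 Gadd45 genes (Gadd45a, Gadd45b and Gadd45g) and 2 unconventional cyclins (Ccng1 and Ccng2). They were taken by symbol from a table of 20591 genes, with no threshold on a value, and all 10 were found and passed the filter on low counts that left 20535 genes for testing. The set was chosen by the IF 1 week against ad libitum values of Cdkn1a, known from an earlier look at these data, together with its family and pathway relatives. The differences below are therefore descriptions of these libraries and not independent tests.

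RNA was sequenced from substantia nigra lysate of wild type C57BL/6 mice. All 3 groups had a sham operation, and what it served as control for is not stated in the labels. The intermittent fasting (IF) 1 week group had 3 fasts within the week, the fasted 1 day group had 1 fast, and the ad libitum group had food throughout for 1 week and was moved between cages on the same schedule. Mice were 12 weeks old at allocation. A fast took 24 hours, starting 2 hours ahead of the dark phase. Each group had 3 libraries. Whether the 3 libraries of a group are 3 animals is not stated, so the error terms measure the spread between libraries, which may be technical. How long after the last fast tissue was taken is not stated either.

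CDK inhibitors fall into families. Products of the Cdkn1 genes bind complexes of cyclins with several CDKs, and that of Cdkn1a also binds the replication clamp PCNA. Products of Cdkn2c and Cdkn2d bind Cdk4 and Cdk6 and keep D-type cyclins from them. Gadd45 proteins are small acidic stress proteins that bind PCNA and Cdk1 and activate the kinase Map3k4. In adult brain most cells have left the cell cycle, and these genes are studied there mainly for cell cycle exit, stress responses and glial precursors. Cdkn1a is a textbook target of p53 and is also induced through the glucocorticoid receptor and FoxO factors in several cell types.

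Library totals ranged from 36109995 to 54248856 counts. All 8 dopaminergic neuron markers, Th and Slc6a3 among them, were measured, with summed levels of 1282 to 2010 CPM in IF 1 week libraries, 830 to 1668 CPM in fasted 1 day libraries and 1277 to 1675 CPM in ad libitum libraries. CPM are counts scaled to a common effective library size by edgeR. IF 1 week replicate 2 and fasted 1 day replicate 2 stood apart. They had the lowest quality weights, 0.507 and 0.213, against 0.972 to 1.93 in the other 7 libraries, and the lowest mitochondrial share of counts, 2.13% and 2.39%, against 2.89% to 4.88%. IF 1 week replicate 3 carried more markers of cortical glutamatergic neurons, at 1313 summed CPM, against 221 to 403 in the other 8. Ad libitum replicate 3 carried more choroid plexus markers, at 386 summed CPM, against 19.8 to 58.3 in the other 8. In a lysate, fewer cells of a type and less RNA per cell cannot be told apart.

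Promoter sequences of the members are given first, since they hold the letters that regulators of these genes could read. RefSeq entries on build GRCm38.p6 were matched by symbol for 9 of the 10 genes, and 11 windows of the 250 bases before an annotated start were searched on both strands. Cdkn1a has 2 annotated starts 2790 bases apart. The upstream window (chr17:29090729-29090978, plus strand) and the downstream window (chr17:29093519-29093768, plus strand) are shown for the gene that differs most between groups, followed by the window of its paralog Cdkn1b (chr6:134920151-134920400, plus strand). Those of Gadd45b (chr10:80929841-80930090, plus strand) and Gadd45g (chr13:51846425-51846674, plus strand), a pair with a common set of motifs, complete the group. Capitals mark every match to a motif searched.
Cdkn1a upstream: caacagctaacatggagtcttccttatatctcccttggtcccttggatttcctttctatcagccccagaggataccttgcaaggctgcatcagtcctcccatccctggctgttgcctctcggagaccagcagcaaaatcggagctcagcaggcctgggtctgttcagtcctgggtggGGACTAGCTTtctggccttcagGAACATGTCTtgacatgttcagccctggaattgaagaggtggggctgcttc
Cdkn1a downstream: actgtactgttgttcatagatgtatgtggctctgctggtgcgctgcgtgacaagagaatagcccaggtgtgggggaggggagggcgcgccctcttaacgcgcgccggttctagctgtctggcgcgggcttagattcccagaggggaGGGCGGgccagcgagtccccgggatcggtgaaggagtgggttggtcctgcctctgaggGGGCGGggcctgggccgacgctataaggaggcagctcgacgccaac
Cdkn1b: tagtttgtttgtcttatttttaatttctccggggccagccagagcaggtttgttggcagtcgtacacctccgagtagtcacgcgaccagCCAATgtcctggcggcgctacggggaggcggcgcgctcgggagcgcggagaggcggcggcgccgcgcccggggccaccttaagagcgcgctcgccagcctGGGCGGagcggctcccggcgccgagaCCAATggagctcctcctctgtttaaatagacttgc
Gadd45b: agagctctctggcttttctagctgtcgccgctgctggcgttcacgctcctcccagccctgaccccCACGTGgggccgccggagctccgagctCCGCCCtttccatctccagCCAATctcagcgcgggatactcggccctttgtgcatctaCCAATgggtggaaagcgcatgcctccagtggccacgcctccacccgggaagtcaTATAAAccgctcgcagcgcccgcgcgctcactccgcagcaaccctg
Gadd45g: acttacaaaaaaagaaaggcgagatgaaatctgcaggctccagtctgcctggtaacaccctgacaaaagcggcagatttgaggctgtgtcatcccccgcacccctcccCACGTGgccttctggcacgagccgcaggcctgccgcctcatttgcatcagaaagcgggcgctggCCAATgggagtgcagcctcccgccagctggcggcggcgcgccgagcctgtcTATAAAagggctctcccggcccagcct

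The upstream Cdkn1a window held 2 matches to the p53 decamer, the 10-base unit of the p53 response element, starting 73 and 51 bases before the start. The downstream window held none and had 2 GC boxes (GGGCGG), 104 and 46 bases before its start. The p53 decamer also matched in the windows of Cdkn2d, Gadd45a and Ccng1, so 4 of 11 member windows held it, against 7.13% of 32851 windows of the same length over all genes. Gadd45b and Gadd45g shared a TATA box (TATAAA, 12.4% of all windows), a CCAAT box (CCAAT, 33.9%) and an E-box (CACGTG, 6.02%), a combination in no other member window. A glucocorticoid receptor hexamer (AGAACA, 16.1% of all windows) was present in 1 window, of Cdkn2c. The FoxO site (GTAAACA, 3.17%) and the CRE (TGACGTCA, 1.55%) were in none of the 11. GC boxes were in 7 of 11, against 32.7% of all windows. In the Cdkn2d window a GC box overlaps the p53 decamer. These matches describe letters in short windows and say nothing about binding.

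Cdkn1a (ENSMUSG00000023067) was the member with the largest differences. It was at 48.5, 110 and 108 CPM in IF 1 week libraries (replicates 1, 2 and 3), from 2689, 4022 and 4683 counts. In fasted 1 day libraries it was at 58.4, 22.9 and 44.5 CPM, from 2812, 886 and 1929 counts. In ad libitum libraries it was at 8.62, 11.2 and 9.51 CPM, from 356, 386 and 439 counts. Every fasted library lay above every ad libitum library, while IF 1 week and fasted 1 day overlapped, with IF 1 week replicate 1 below fasted 1 day replicate 1. The lowest fasted library, fasted 1 day replicate 2, was one that stood apart. Group means were 88.8 ± 34.9 CPM in the IF 1 week group, 41.9 ± 17.9 CPM in the fasted 1 day group and 9.76 ± 1.29 CPM in the ad libitum group (SD, n = 3 each). The edgeR fit over all 9 libraries gave 9.09-fold for IF 1 week over ad libitum (log2 fold change 3.18, SE 0.41) and 4.30-fold for fasted 1 day over ad libitum (2.10, SE 0.40). Both use the same ad libitum libraries. IF 1 week over fasted 1 day was 2.12-fold (1.08, SE 0.38), and the log2 value was 0.62 without both libraries that stood apart.

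The spread between libraries of Cdkn1a was wider in both fasted groups. Its coefficient of variation was 39.3% in the IF 1 week group, 42.7% in the fasted 1 day group and 13.2% in the ad libitum group. Summed endothelial markers, 8 of 8 measured, were at 251 to 323 CPM in IF 1 week libraries, 269 to 290 in fasted 1 day libraries and 281 to 347 in ad libitum libraries. Astrocyte markers, 7 of 7 measured, summed to 4872 to 5206 CPM in IF 1 week libraries, 4668 to 5293 in fasted 1 day libraries and 4698 to 4874 in ad libitum libraries. For both lists the ranges of all 3 groups overlapped. Over the 9 libraries the endothelial sums were still lower where Cdkn1a was higher (Pearson r of log2 values -0.70). For astrocytes r was 0.27. Other lists were also lower where Cdkn1a was higher, with r of -0.55 for oligodendrocyte precursors, -0.62 for oligodendrocytes and -0.59 for microglia. For cortical glutamatergic neurons r was 0.52 and for blood 0.43. All these r were taken over the 3 groups together, so they also carry differences between fasted and ad libitum libraries. Oligodendrocyte precursor markers, 7 of 7 measured, summed to 426 to 493 CPM in IF 1 week libraries, 384 to 471 in fasted 1 day libraries and 499 to 534 in ad libitum libraries, with no overlap between fasted and ad libitum. Oligodendrocyte markers, 10 of 10 measured, summed to 10777 to 12386 CPM in IF 1 week libraries, 10221 to 12064 in fasted 1 day libraries and 12195 to 14850 in ad libitum libraries. Microglia markers, 8 of 8 measured, summed to 190 to 299 CPM in IF 1 week libraries, 214 to 247 in fasted 1 day libraries and 296 to 324 in ad libitum libraries. For these 2 lists fasted 1 day lay below ad libitum without overlap and IF 1 week overlapped it. The part of any of these lists in the Cdkn1a values was not tested.

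**Figure D1:**
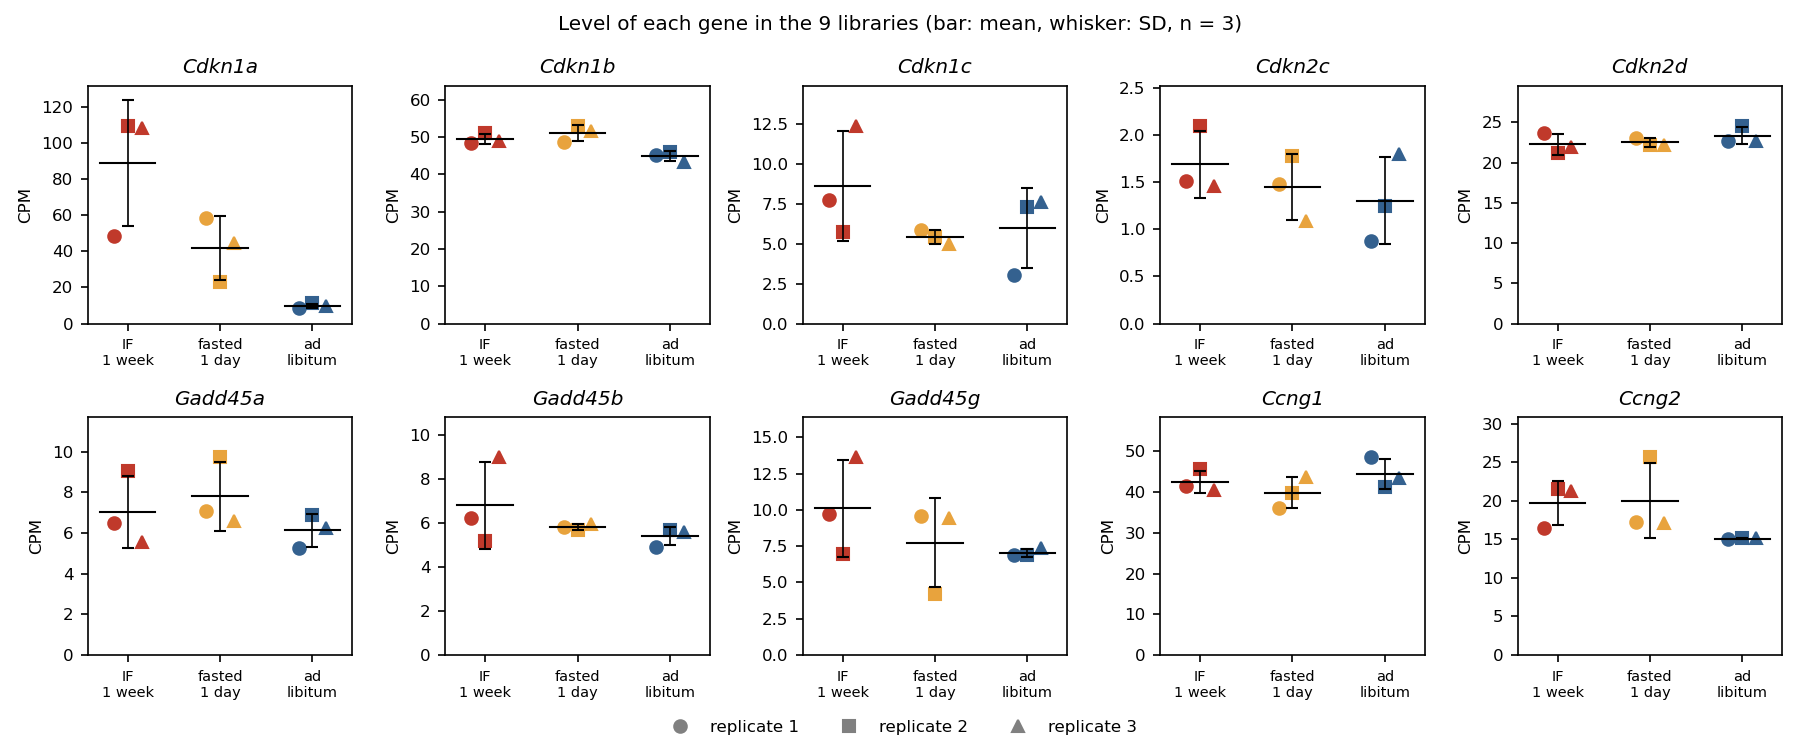
CPM of each of the 10 genes (vertical axis, starting at 0) in IF 1 week, fasted 1 day and ad libitum libraries. Each point is a library, marked by replicate number, the bar is the mean and the whisker the SD (n = 3). Cdkn1a in ad libitum libraries lies between 8.62 and 11.2 CPM, below all fasted libraries, whereas Cdkn2d and Ccng1 overlap across groups.

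The fellow Cip/Kip inhibitors did not show a difference of that size. Cdkn1b (ENSMUSG00000003031), which holds many cells in quiescence, was at 48.4, 51.1 and 48.8 CPM in IF 1 week libraries and 48.6, 53.1 and 51.6 CPM in fasted 1 day libraries. Ad libitum libraries had 45.3, 45.9 and 43.4 CPM. The fasted libraries all lay above the ad libitum libraries, by a small margin. The fitted difference was 1.10-fold for IF 1 week (log2 fold change 0.14, SE 0.09) and 1.14-fold for fasted 1 day (0.19, SE 0.09), with edgeR adjusted p over all genes of 0.604 for IF 1 week and 0.542 for fasted 1 day. The oligodendrocyte precursor sums given for Cdkn1a were ordered the other way, as were those of oligodendrocytes and microglia after 1 day, and their part in the Cdkn1b values was not tested.

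Cdkn1c (ENSMUSG00000037664), an imprinted inhibitor expressed from the maternal copy, varied between libraries more than between groups. It was at 7.73, 5.75 and 12.4 CPM in IF 1 week libraries, 5.86, 5.45 and 5.003 CPM in fasted 1 day libraries and 3.07, 7.29 and 7.62 CPM in ad libitum libraries. All 3 groups overlapped. The log2 fold change was 0.53 (SE 0.35) for IF 1 week and -0.14 (SE 0.35) for fasted 1 day against ad libitum. The highest library, IF 1 week replicate 3, also had the highest sum of 7 fibroblast and meninges markers, 431 CPM. Those sums were 225, 110 and 431 CPM in IF 1 week libraries, 150, 117 and 73.9 CPM in fasted 1 day libraries and 97.6, 235 and 260 CPM in ad libitum libraries. All 7 were measured and none was at 0 in every library of a group, and the lowest Cdkn1c library, ad libitum replicate 1, had the second lowest sum. The part of these cells in the Cdkn1c level was not tested.

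The INK4 inhibitors overlapped between groups. Cdkn2d (ENSMUSG00000096472) stayed within 21.2 to 23.6 CPM in IF 1 week libraries, 22.2 to 23.1 in fasted 1 day libraries and 22.7 to 24.6 in ad libitum libraries. Its log2 fold change against ad libitum was -0.07 for IF 1 week and -0.05 for fasted 1 day, each with an SE of 0.09. Cdkn2c (ENSMUSG00000028551) had 63 to 84 counts in IF 1 week libraries, 47 to 71 in fasted 1 day libraries and 36 to 83 in ad libitum libraries. Counting error alone is 10.9% at 84 counts and 16.7% at 36. Its log2 fold changes, 0.36 for IF 1 week and 0.14 for fasted 1 day, had SEs of 0.31, so differences of that size were not detectable in these libraries. Cdkn2b, another INK4 gene, was at 0.272 ± 0.0665 CPM in the IF 1 week group, 0.491 ± 0.115 CPM in the fasted 1 day group and 0.283 ± 0.0558 CPM in the ad libitum group (SD, n = 3 each) and passed no edgeR comparison.

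On the scale of CPM per kb of exon, Cdkn1a took a different share of the CDK inhibitors in fasted and ad libitum libraries. The length is that of the merged exons of all annotated transcripts, 3.55 kb for Cdkn1a, 4.55 kb for Cdkn1b and 1.57 kb for Cdkn2d. Which transcripts were expressed was not tested, so shares and orders between genes hold for this length only. Its share of the summed CPM per kb of the 5 inhibitors was 31.3%, 52.2% and 49.3% in IF 1 week libraries, 36.4%, 18.1% and 30.7% in fasted 1 day libraries and 8.48%, 9.56% and 8.62% in ad libitum libraries. Cdkn2d had a share of 22.5% to 34.4% in IF 1 week libraries, against 46.5% to 50.4% in ad libitum libraries, where it was the leading inhibitor. The sum itself was 43.7 to 61.7 CPM per kb in IF 1 week libraries, 35.5 to 45.2 in fasted 1 day libraries and 28.6 to 32.9 in ad libitum libraries. In IF 1 week libraries Cdkn1a came first at 25.0 ± 9.83 CPM per kb, overlapping Cdkn2d at 14.1 ± 0.794, and in fasted 1 day libraries it came behind Cdkn2d at 11.8 ± 5.04, against 14.3 ± 0.329 for Cdkn2d (SD, n = 3 each). That order is of means, and these ranges overlapped too: in fasted 1 day replicate 1 Cdkn1a had the larger share, 36.4% against 32.4% for Cdkn2d, and in replicate 2, at 18.1%, it was also behind Cdkn1b at 32.8%. Across the 10 genes in ad libitum libraries, mean levels per kb ran in the order Cdkn2d (14.8), Ccng1 (12.7), Cdkn1b (9.85), Gadd45g (6.00), Gadd45a (3.48), Gadd45b (3.40), Cdkn1c (2.94), Ccng2 (2.77), Cdkn1a (2.75) and Cdkn2c (0.486). From Gadd45a to Cdkn1a each neighbour in that order overlapped the next, and the other neighbours did not.

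**Figure D2:**
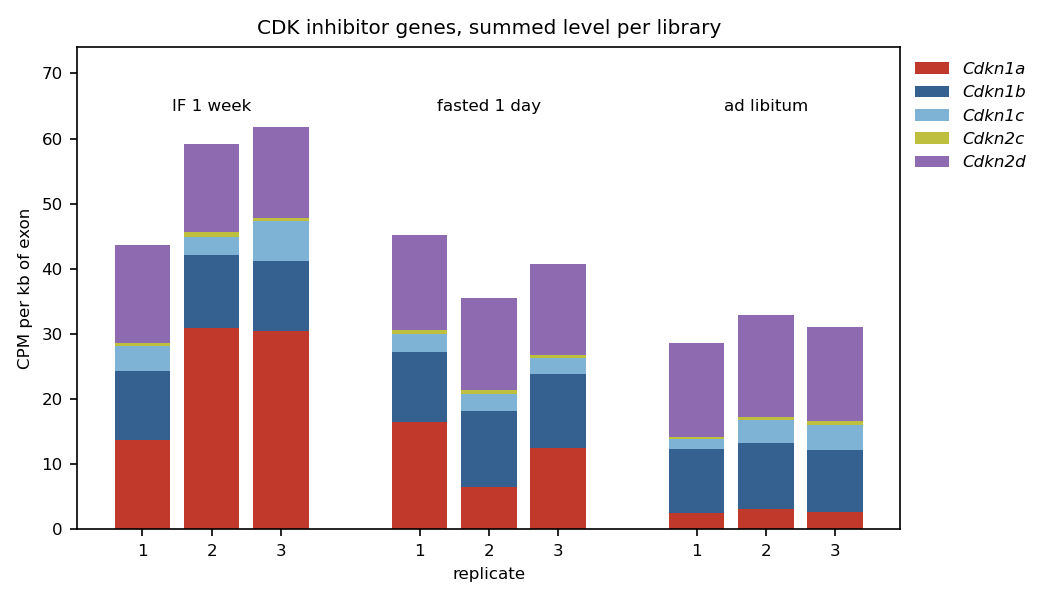
Stacked level of the 5 CDK inhibitor genes in CPM per kb of exon (vertical axis) for each library, by group and replicate number. The Cdkn1a segment makes up 31.3% to 52.2% of the bar in IF 1 week libraries, 18.1% to 36.4% in fasted 1 day libraries and 8.48% to 9.56% in ad libitum libraries.

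The Gadd45 genes varied between libraries in different ways, and none passed a test between groups. Gadd45a (ENSMUSG00000036390), a p53 target induced by DNA damage, was at 6.51, 9.03 and 5.57 CPM in IF 1 week libraries, 7.09, 9.73 and 6.59 CPM in fasted 1 day libraries and 5.28, 6.88 and 6.26 CPM in ad libitum libraries. Replicate 2 of both fasted groups, the libraries that stood apart, were the highest of the 9. Gadd45g (ENSMUSG00000021453), known for its part in neural differentiation, was at 9.70, 6.95 and 13.6 CPM in IF 1 week libraries, 9.56, 4.18 and 9.43 CPM in fasted 1 day libraries and 6.90, 6.86 and 7.34 CPM in ad libitum libraries. Here the same replicates were the lowest of their groups. The log2 fold change of Gadd45a was 0.19 (SE 0.22) for IF 1 week and 0.35 (SE 0.22) for fasted 1 day against ad libitum. For Gadd45g it was 0.52 (SE 0.32) for IF 1 week and 0.14 (SE 0.32) for fasted 1 day. Without both libraries that stood apart the log2 fold change of Gadd45g was 0.74 for IF 1 week and 0.43 for fasted 1 day, and that of Gadd45a was -0.01 for IF 1 week and 0.16 for fasted 1 day. The part of library quality in these values was not tested.

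Gadd45b (ENSMUSG00000015312), an activity-induced member linked to DNA demethylation in neurons, was at 6.24, 5.18 and 9.01 CPM in IF 1 week libraries, 5.82, 5.68 and 5.95 CPM in fasted 1 day libraries and 4.94, 5.67 and 5.61 CPM in ad libitum libraries. IF 1 week replicate 3 was highest for Gadd45b and for Gadd45g, and it is the library with the raised cortical neuron markers, all 5 of which were measured. Blood markers, 5 of 5 measured, were also highest there, at 1505 summed CPM, against 282 to 623 in the other 8. The part of either list in the Gadd45b and Gadd45g values was not tested. The log2 fold change of Gadd45b was 0.33 (SE 0.20) for IF 1 week and 0.11 (SE 0.20) for fasted 1 day, and without IF 1 week replicate 3 it was 0.08 for IF 1 week. Per kb, Gadd45g was the leading Gadd45 gene, with 41.4% to 56.8% of the summed level of the 3 in IF 1 week libraries, 28.2% to 51.8% in fasted 1 day libraries and 43.9% to 49.1% in ad libitum libraries. Fasted 1 day replicate 2, at 28.2%, was the exception, and there Gadd45a led with 43.6%.

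**Figure D3:**
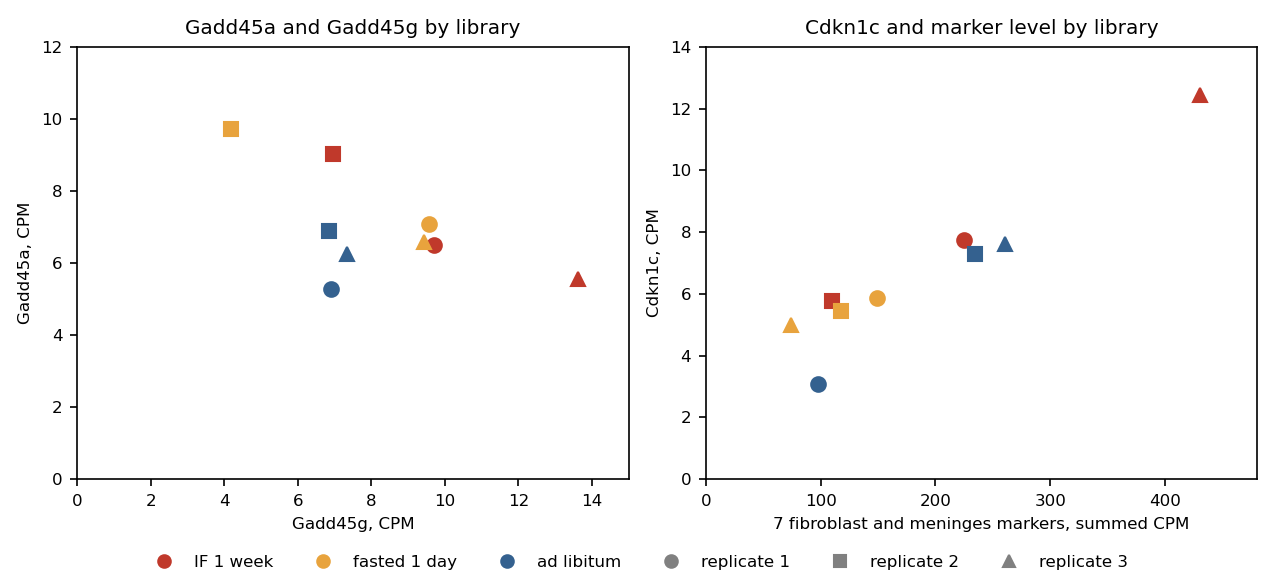
Left, Gadd45a against Gadd45g, both in CPM; right, Cdkn1c in CPM against the summed CPM of 7 fibroblast and meninges markers. Each point is a library, coloured by group and shaped by replicate number; both replicate 2 libraries of the fasted groups sit at the top left of the Gadd45 plot, at 9.03 and 9.73 CPM of Gadd45a, and IF 1 week replicate 3 sits at the top right of the Cdkn1c plot, at 12.4 CPM.

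The G-type cyclins parted. Ccng2 (ENSMUSG00000029385), a FoxO-responsive gene linked to cell cycle arrest, was at 16.4, 21.5 and 21.3 CPM in IF 1 week libraries, 17.3, 25.7 and 17.1 CPM in fasted 1 day libraries and 15.0, 15.1 and 15.1 CPM in ad libitum libraries. All 6 fasted libraries lay above the ad libitum libraries. The coefficient of variation of the ad libitum libraries, 0.469%, is below their counting error of 3.78% to 4.37%, so the spread seen between them is smaller than counting alone would give on average. Neuron markers, 5 of 5 measured, summed to 2555, 2694 and 2945 CPM in IF 1 week libraries, 2472, 3077 and 2450 in fasted 1 day libraries and 2650, 2528 and 2710 in ad libitum libraries, and were highest in fasted 1 day replicate 2, as Ccng2 was. The oligodendrocyte precursor sums again separated the same libraries in the other direction. The part of either list in the Ccng2 values was not tested. The log2 fold change was 0.39 (SE 0.17) for IF 1 week and 0.41 (SE 0.17) for fasted 1 day, with edgeR adjusted p of 0.440 for IF 1 week and 0.531 for fasted 1 day. Without fasted 1 day replicate 2 the fasted 1 day log2 fold change was 0.19. Ccng1 (ENSMUSG00000020326), a p53 target that acts on Mdm2 through a phosphatase, was at 40.5 to 45.6 CPM in IF 1 week libraries, 36.1 to 43.8 in fasted 1 day libraries and 41.2 to 48.6 in ad libitum libraries. Its log2 fold change against ad libitum was -0.07 for IF 1 week and -0.16 for fasted 1 day, each with an SE of 0.11, and its groups overlapped.

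Counted over the 10 genes, 1 was past the threshold of 0.05 on the adjusted p of edgeR's quasi-likelihood test for IF 1 week against ad libitum, Cdkn1a, while 0.307% of all genes tested were. At an unadjusted p under 0.05 there were 2, Cdkn1a and Ccng2, against 11.2% of all genes. For fasted 1 day against ad libitum 0 of 10 passed, against 0.0584% of all genes, with adjusted p from 0.165 for Cdkn1a to 0.892. At an unadjusted p under 0.05 there were 2, Cdkn1a and Ccng2, against 9.27% of all genes, and DESeq2 called Cdkn1a and voom with quality weights none. For IF 1 week against fasted 1 day 0 of 10 passed, against 0% of all genes, with adjusted p from 0.853. Cdkn1a alone had an unadjusted p under 0.05 there, against 5.22% of all genes, and DESeq2 and voom called no member. Groups did not overlap, with the fasted group higher, for 3 members after 1 week (Cdkn1a, Cdkn1b and Ccng2) and 10.9% of all genes, and for 4 after 1 day (those and Gadd45b, whose nearest libraries were at 5.68 CPM fasted and 5.67 CPM ad libitum) and 8.18% of all genes. No member was lower without overlap, against 11.5% of all genes after 1 week and 10.3% after 1 day. Between IF 1 week and fasted 1 day 0 members were higher and 0 lower without overlap, against 4.5% and 3.28% of all genes. The members' median log2 fold change was 0.35 after 1 week and 0.14 after 1 day, where that of all genes was 0.00 in both. Nothing is read from these shares, since the members were chosen with values in view. The call of Cdkn1a for IF 1 week held in 10 of 17 alternatives. Among those in which it ended were the ones in which any of the 3 ad libitum libraries, IF 1 week replicate 2 or 3, or both libraries that stood apart were left out. The log2 fold change of Cdkn1a lay between 2.92 and 3.48 in all 17.

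**Figure D4:**
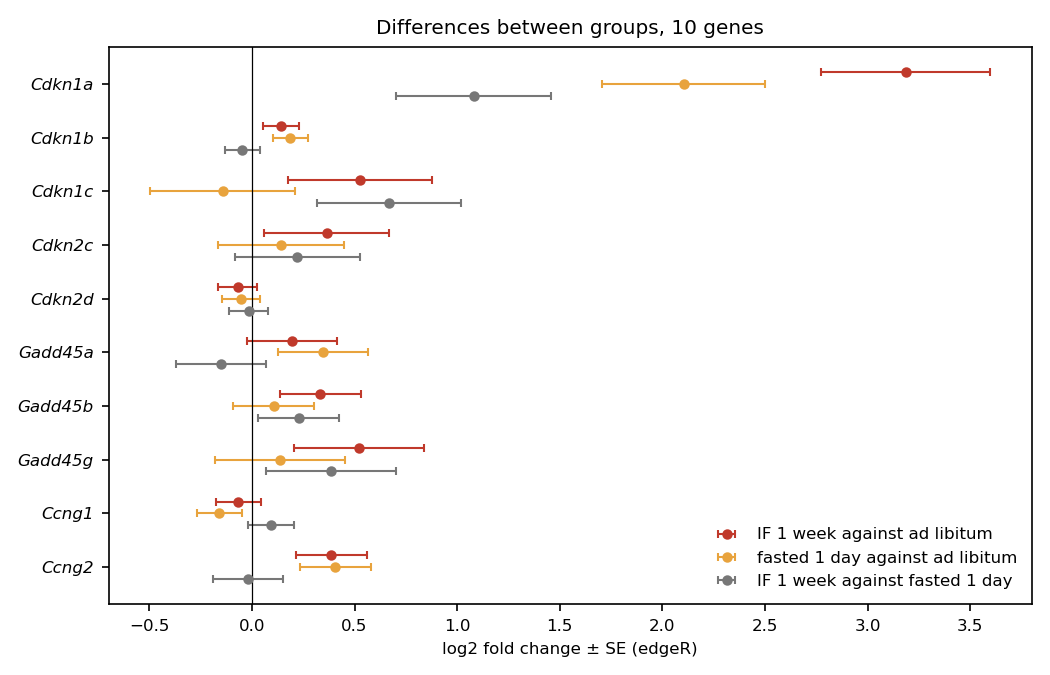
Log2 fold change with its SE (edgeR, horizontal axis) of each gene for IF 1 week against ad libitum, fasted 1 day against ad libitum and IF 1 week against fasted 1 day. Cdkn1a stands at 3.18, 2.10 and 1.08, and the other 9 genes lie between -0.16 and 0.67.

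The genes most like Cdkn1a over the 9 libraries, by Pearson correlation of log2 CPM among 16332 other genes at 1 CPM or more, were Arrdc2 (r = 0.985), Itgad (0.983), Plin4 (0.979), Gabrr2 (0.975), Klf15 (0.974), Map3k6 (0.974), Nfkbia (0.973) and Bcl2l1 (0.973). The libraries share their groups, so these values largely carry the difference between fasted and ad libitum libraries. Arrdc2, an alpha-arrestin, averaged 65.0 CPM in the IF 1 week group, 46.8 in the fasted 1 day group and 15.9 in the ad libitum group. Bcl2l1, an inhibitor of apoptosis, averaged 159 CPM in the IF 1 week group, 124 in the fasted 1 day group and 95.8 in the ad libitum group. None of the other 9 members was among the 8. The closest gene to each of them was Cul4a for Cdkn1b (r = 0.967), a scaffold of ubiquitin ligases, Flna for Cdkn1c (0.972), Ly75 for Cdkn2c (0.901) and Irf9 for Cdkn2d (0.943). For Gadd45a it was Smarcc2 (0.990), for Gadd45b Itga8 (0.974), for Gadd45g Mir9-3hg (0.970), for Ccng1 Pigf (0.887) and for Ccng2 Mkrn1 (0.977). Each of these r is the highest among 16332 genes over only 9 libraries. A search of that size finds high values among unrelated genes too, so no link between the genes is read from them.

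Other targets of the factors known to act on Cdkn1a were counted by list, leaving out the members. On the list of other p53 targets, which also holds Trp53 itself, 29 genes were tested. Of these, 0 passed edgeR's test for IF 1 week (4 at an unadjusted p under 0.05) and 0 for fasted 1 day (6). DESeq2 called Trp53inp1 for IF 1 week, and Trp53inp1 and Btg2 for fasted 1 day, and voom called Trp53inp1 for IF 1 week and Btg2 for fasted 1 day. Median log2 fold changes were 0.01 for IF 1 week and -0.01 for fasted 1 day. Trp53inp1, a p53-induced nuclear protein, was at 27.9 ± 4.83 CPM in the IF 1 week group, 25.1 ± 2.73 in the fasted 1 day group and 16.6 ± 0.753 in the ad libitum group (SD, n = 3 each), with edgeR adjusted p of 0.0764 for IF 1 week and 0.299 for fasted 1 day against ad libitum. Btg2, an antiproliferative immediate early gene, was at 15.3 ± 1.66 CPM in the IF 1 week group, 21.3 ± 3.88 in the fasted 1 day group and 10.99 ± 1.26 in the ad libitum group (SD, n = 3 each), with edgeR adjusted p of 0.278 for IF 1 week and 0.0860 for fasted 1 day. Fas was at 1.88 ± 0.317 CPM in IF 1 week, 1.94 ± 0.293 in fasted 1 day and 0.975 ± 0.380 in ad libitum libraries. Its edgeR adjusted p was 0.265 for IF 1 week and 0.418 for fasted 1 day. Sesn1 was at 42.9 ± 6.57 CPM in the IF 1 week group and 32.0 ± 0.677 CPM in the ad libitum group (edgeR adjusted p = 0.251). Ephx1, a further p53 target, pointed the other way after 1 day, at 17.3 ± 0.857 CPM in the fasted 1 day group and 24.7 ± 2.76 CPM in the ad libitum group (edgeR adjusted p = 0.359). Of the 29 genes, 15 had a positive log2 fold change for IF 1 week and 14 for fasted 1 day.

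Of 19 FoxO factors and targets tested, 2 rose in IF 1 week, Klf15 and Pdk4, 0 fell and 17 did not pass. The median log2 fold change was 0.25. Klf15 and Pdk4 were put on this list alone, and which factor acted on them was not tested. Klf15, a transcription factor of fasting metabolism, was at 58.0 ± 7.13 CPM in the IF 1 week group and 26.1 ± 2.72 CPM in the ad libitum group (SD, n = 3 each; edgeR log2 fold change 1.15, SE 0.14, adjusted p = 0.00957). Both calls ended when any of the 3 ad libitum libraries was left out, and that of Pdk4 also without IF 1 week replicate 2 or 3 and without both libraries that stood apart. DESeq2 called 4 of the list for IF 1 week and voom 5. For fasted 1 day 0 of 19 passed edgeR's test, 7 had an unadjusted p under 0.05, and DESeq2 and voom each called Klf15 and Pdk4. The median was 0.09.

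The list of glucocorticoid receptor targets had 26 genes, of which 15 rose in IF 1 week, 0 fell and 11 did not pass (median log2 fold change 1.12), while DESeq2 called 18 and voom 17. The 15 were Sgk1, Arl4d, Net1, Arrdc2, Plin4, Ddit4, Mertk, Sult1a1, Hif3a, Nfkbia, Map3k6, Errfi1, Zbtb16, Gjb6 and Klf9. For fasted 1 day 6 rose (Sgk1, Arl4d, Net1, Arrdc2, Plin4 and Ddit4), 0 fell and 20 did not pass (median 0.71), while DESeq2 called 15 and voom 11. Several of these genes were put on the list because they stood out in these libraries, so the counts are not independent evidence of their direction. Sgk1, a kinase, had the smallest p for IF 1 week, at 285 ± 28.0 CPM in the IF 1 week group and 47.5 ± 5.99 CPM in the ad libitum group (SD, n = 3 each; edgeR log2 fold change 2.58, SE 0.20, adjusted p = 0.00154). Leaving out ad libitum replicate 1, 2 or 3 gave 5, 7 or 4 calls for IF 1 week and 0 for fasted 1 day. The number was 9 for IF 1 week without IF 1 week replicate 2 or 3, and 2 for fasted 1 day without fasted 1 day replicate 1 or 3. For IF 1 week against fasted 1 day 0 of 26 passed edgeR's test, 12 had an unadjusted p under 0.05, and DESeq2 and voom called none.

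The machinery that the inhibitors act on held no gene past the test. None of 17 cyclins, CDKs and their phosphatases and kinases, 12 pocket proteins and E2F factors, 17 proliferation markers, 13 genes of CDK inhibitor degradation or 14 Gadd45 kinases and partners passed edgeR in IF 1 week or fasted 1 day against ad libitum, and DESeq2 and voom called none either. At an unadjusted p under 0.05 these lists held 1, 2, 1, 0 and 2 genes for IF 1 week and 0, 0, 1, 4 and 0 for fasted 1 day. Medians lay between -0.13 and 0.07. Ccnd1, the D-type cyclin that pairs with Cdk4, was at 33.3 ± 1.15 CPM in the IF 1 week group and 42.8 ± 2.94 CPM in the ad libitum group (SD, n = 3 each; edgeR adjusted p = 0.429). Mki67, a marker of dividing cells, was at 0.484 ± 0.0402 CPM in the fasted 1 day group and 0.974 ± 0.271 CPM in the ad libitum group (edgeR adjusted p = 0.404). The IF 1 week group had 0.741 ± 0.152 CPM of Mki67 (edgeR adjusted p = 0.668 against ad libitum). Skp2, which marks the product of Cdkn1b for degradation, was at 4.95 ± 0.249 CPM in the fasted 1 day group and 3.68 ± 0.179 CPM in the ad libitum group (edgeR adjusted p = 0.466). The IF 1 week group had 4.41 ± 0.279 CPM of Skp2 (edgeR adjusted p = 0.559 against ad libitum). Of 18 immediate early genes, 0 passed edgeR's fit to all 9 libraries in either comparison, with medians of 0.30 for IF 1 week and 0.57 for fasted 1 day. Without IF 1 week replicate 3 the IF 1 week median was -0.10 and Arc passed as lower, and without fasted 1 day replicate 3 the fasted 1 day median was 0.27. For fasted 1 day 9 had an unadjusted p under 0.05, DESeq2 called Fos and voom none, and for IF 1 week the numbers were 3, 0 and 0. For fasted 1 day edgeR called Fos as higher and Arc as lower with only the 6 libraries compared, and Fos without IF 1 week replicate 1.

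**Figure D5:**
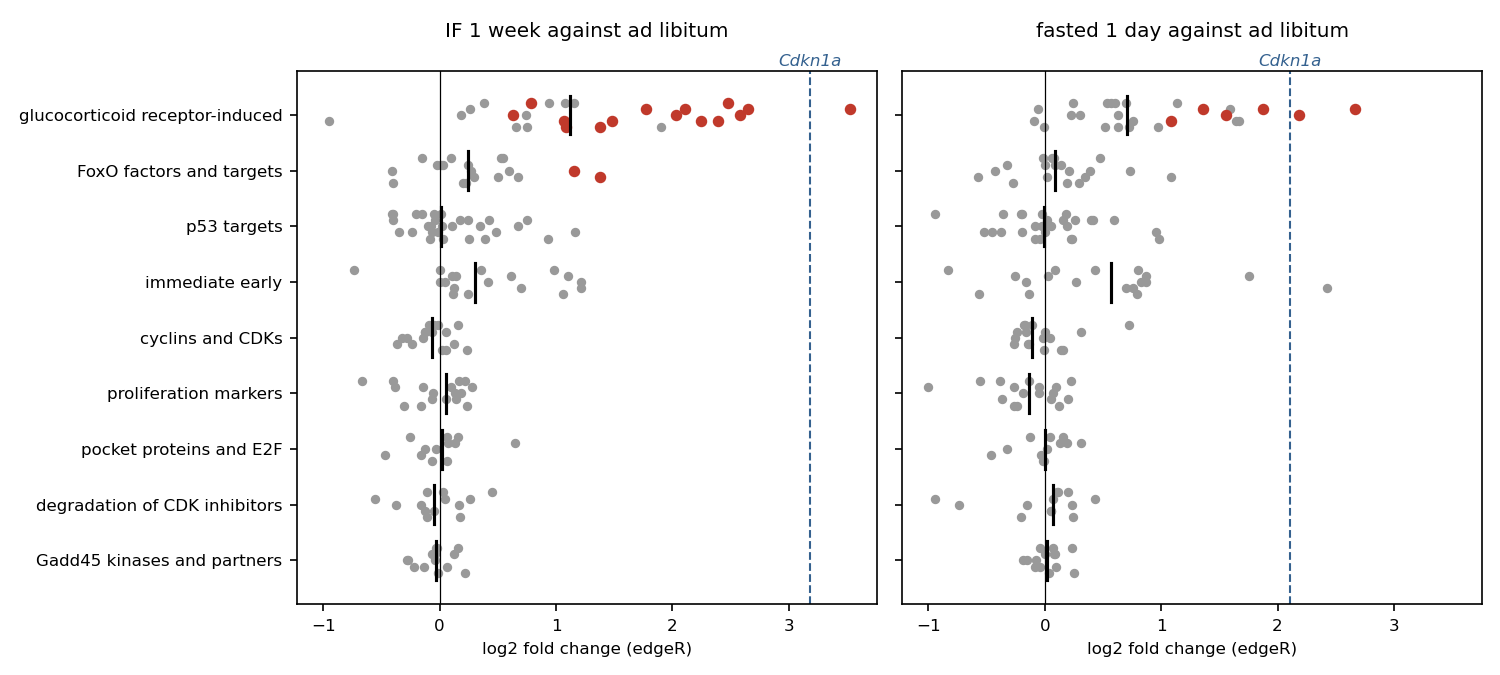
Log2 fold change (edgeR, horizontal axis) of every tested gene of 9 lists for IF 1 week against ad libitum (left) and fasted 1 day against ad libitum (right), members left out. Each point is a gene, red where its adjusted p is under 0.05, the black bar is the list's median and the dashed line is Cdkn1a; red points appear in the glucocorticoid receptor list in both panels and, for IF 1 week, among FoxO targets.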

How the data were processed

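The authors deposited one table of estimated counts per gene for 9 substantia nigra libraries, written as whole numbers and not scaled to depth. Per the labels' protocols, lysates went through an RNeasy Lipid Tissue Mini extraction and a strand-keeping NEBNext Ultra II preparation. The submitters' processing notes name Salmon, DESeq2 1.40.2 and builds GRCm39 and mm39, with the Salmon version, annotation release, step from transcripts to genes and any row filter not given in the sources used here. Salmon divides reads between similar transcripts.

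The test was edgeR 4.0.16 (R 4.3.3): TMM scaling, filterByExpr (minimum count 10, minimum total 15), robust quasi-likelihood fit to all 9 libraries, two-sided F tests and Benjamini-Hochberg adjustment over 20535 genes. SEs were derived from F. Correlations used log2 CPM with a prior count of 2. The counts agreed less than sampling noise allows in every pair of libraries. Exon length came from GENCODE M21 by gene identifier, as the merged exons of all transcripts of a gene. Levels per kb compared between genes depend on that length. The fit was first tested on simulated data, with changes set in genes at 1 CPM or more. Over the comparisons it recovered 14.7% to 22.5% of 1.5-fold changes and 54.0% to 64.3% of 2-fold changes. Of 4-fold changes it recovered 89.7% to 97.1%. False calls, counted over all fold sizes together, numbered 8 to 13 in a comparison. A gene that did not pass may therefore still differ between groups.

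The members and lists were chosen with earlier results of these data known. Named are all members, the genes most like them, and list genes by smallest p or past the test. Alternatives were DESeq2 1.42.0, RLE scaling, other filters, the 6 libraries alone, limma 3.58.1 voom weights, a replicate block and each library left out. Between IF 1 week and fasted 1 day the deviations of all 3 same-numbered pairs correlated at 0.12 to 0.49 over 16333 genes, above the 0.1 taken as pairing, while different numbers over all groups gave -0.38 to 0.28. IF 1 week replicates 1 and 3 correlated better with fasted 1 day replicates 3 and 1, at 0.28 each, than with their own numbers, at 0.18 and 0.12. The pair at 0.49 was replicate 2, the libraries that stood apart. A pairing by number is therefore not established, and the labels tie the numbers to nothing shared.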

Additional observations from a re-analysis of the deposited data

How the results depend on the processing

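Under all 17 alternatives the log2 fold changes of the 10 members moved by less than 1 SD between replicates. This held in each of the 3 comparisons (510 of 510 values). Leaving out 1 of 3 libraries can hardly move a mean by 1 SD, so that measure says little there. Not every sign held. For fasted 1 day against ad libitum Cdkn2c lay between -0.08 and 0.46, with its sign kept in 14 of 17. Cdkn1c lay between -0.46 and 0.08, with its sign kept in 15, and Cdkn1a kept its sign in all 17. Counts of calls moved widely. For fasted 1 day against ad libitum 12 genes passed, and 184 with DESeq2, 26 with the 6 libraries alone, 93 with voom weights, 2 with the replicate block and 50 without both libraries that stood apart, an alternative chosen after seeing the data. For IF 1 week against ad libitum 63 passed, and 464, 155, 296 and 32 under the first 4 of these. For IF 1 week against fasted 1 day 0 passed with edgeR, 1071 genes had an unadjusted p under 0.05, voom called 0 and DESeq2 3. Leaving out a library gave 0 to 22, 8 to 121 and 0 to 3 genes. Of the members, DESeq2 called 1 for fasted 1 day, Cdkn1a, where edgeR called 0. The 1 member called for IF 1 week was 0 with the replicate block, 0 without both libraries that stood apart, and 0 or 1 when a library was left out. The causes were not tested. Libraries with the same replicate number had deviations that correlated at -0.19 to 0.21 between a fasted group and ad libitum, and 3 of 9 libraries correlated best with their own number, so against ad libitum the libraries share only a number. Under the replicate block the glucocorticoid receptor list had 10 calls for IF 1 week and 2 for fasted 1 day, and the FoxO list 1 for IF 1 week, Klf15. In IF 1 week against fasted 1 day the block changed no call, 0 with it and 0 without. Depth limits Cdkn2c, at 36 to 84 counts.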
